A study of Arabidopsis thaliana with 48 samples.

Results

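PYD4 is the last gene of a short route that breaks the pyrimidine base uracil down to beta-alanine and beyond. It was followed here with 5 related genes, together 6 of the 33602 targets in the deposited count table. The genes were taken by locus identifier: PYD1 (AT3G17810), PYD2 (AT5G12200), PYD3 (AT5G64370) and PYD4 (AT3G08860) of the pathway, and AGT2 (AT4G39660) and AGT3 (AT2G38400), the relatives of PYD4. The set was chosen by the root values of PYD4 at low sulfate, which lay far below Col-0 in the lines labelled eil3 and eil3 eil1, and the other 5 genes came with it as its pathway and relatives. Its root values are therefore given as a description, with no test, while its shoot values and the other 5 genes were tested. All 6 genes passed the filter on low counts in both organs.

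In uracil breakdown, PYD1, dihydropyrimidine dehydrogenase, reduces the ring, PYD2, dihydropyrimidinase, opens it, and PYD3, beta-ureidopropionase, releases beta-alanine. PYD4 is an aminotransferase placed after PYD3 and assigned to beta-alanine, and AGT2 and AGT3 are annotated as alanine:glyoxylate aminotransferase homologs. The pathway is known for recovering nitrogen from nucleotides, and beta-alanine is also a building block of pantothenate and so of coenzyme A.

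The plants were Arabidopsis thaliana seedlings, 18 days old, of 4 genotypes: the double mutant eil3 eil1, the insertion line eil3 (SALK_089129, in EIL3, AT1G73730), the insertion line eil1 (SALK_042113, in EIL1, AT2G27050) and the ecotype Col-0. EIL3 (SLIM1) is known as a regulator of sulfur-limitation genes, and EIL1 as a relative of EIN3 that acts in the ethylene pathway. Agarose plates held low sulfate (-S, 0.015 mM magnesium sulfate with 0.75 mM magnesium chloride) or full sulfate (+S, 0.75 mM magnesium sulfate with 0 mM of the chloride), so the effects of less sulfate and of more chloride cannot be told apart. Shoots and roots were sequenced apart, which gives 16 groups of 3 libraries, described as biological replicates. Each single mutant was 1 insertion line, and the alleles of the double mutant are not named here. In these bulk samples, fewer cells of a type and less RNA per cell cannot be told apart.

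The total of estimated counts was 27029088 to 37809216 over the shoot libraries and 26615772 to 38269946 over those of roots. Levels are given in CPM, the count of a gene as a share of its library, scaled within each organ. The summed level of 12 green tissue markers was 29772 to 76976 CPM in -S shoots and 84412 to 112272.5 CPM in +S shoots, against 722 to 2724 CPM in roots. The 10 root markers summed to 6626 to 10256 CPM in roots and 343 to 627 CPM in shoots, and 1 of them was at 0 in all +S shoot libraries of eil3 eil1. The sum hides single markers. Of 8 tested in shoots, 7 passed as lower at -S in eil3 eil1, against 60.8% of loci, with a median log2 change of -1.79. Their sum was yet 510 to 541 CPM at -S and 353 to 496 CPM at +S in that line. Green marker sums were thus lower in every -S shoot library than in any +S one, and their part in the shoot results was not tested. The targeted transcripts followed the labels in part. EIL1 averaged 27.0 ± 1.12 CPM in eil3 eil1 and 92.4 ± 5.98 CPM in eil1, against 105.1 ± 5.14 CPM in Col-0, in -S shoots (SD, n = 3 each). In +S roots EIL1 was lower in eil3 eil1 (15.8 ± 2.52 CPM) but not in eil1 (51.4 ± 2.25 CPM), against 51.4 ± 1.46 CPM in Col-0. In -S roots EIL1 averaged 19.5 ± 2.15 CPM in eil3 eil1 and 43.0 ± 5.72 CPM in eil1, against 55.9 ± 4.27 CPM in Col-0, with no overlap of libraries. EIL3 averaged 29.97 ± 2.86 CPM in eil3 eil1 and 19.2 ± 2.57 CPM in eil3, against 21.9 ± 1.41 CPM in Col-0, in -S shoots, and 21.2 ± 1.09 CPM in eil3 eil1 and 14.8 ± 2.60 CPM in eil3, against 22.2 ± 0.649 CPM in Col-0, in -S roots. A count over a locus can keep reads of a disrupted gene, so these levels do not settle the genotypes, and lines are named as labelled.

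The 300 bases before the annotated start of PYD4, PYD1, PYD2 and PYD3 are shown because these 4 genes were all higher in low-sulfate shoots. They are RefSeq sequence of build TAIR10.1, read 5′ to 3′ on each gene's own strand. The windows are chr3:2699421-2699720 (minus strand) for PYD4, chr3:6093690-6093989 (plus strand) for PYD1, chr5:3944867-3945166 (minus strand) for PYD2 and chr5:25738831-25739130 (plus strand) for PYD3. Capitals mark GAGAC, the core of the sulfur-responsive element.
PYD4: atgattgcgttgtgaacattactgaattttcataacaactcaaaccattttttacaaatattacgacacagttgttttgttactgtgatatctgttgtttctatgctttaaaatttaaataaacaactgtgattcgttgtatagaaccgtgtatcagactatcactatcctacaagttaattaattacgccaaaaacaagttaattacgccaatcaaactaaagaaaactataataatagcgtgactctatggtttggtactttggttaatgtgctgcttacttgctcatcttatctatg
PYD1: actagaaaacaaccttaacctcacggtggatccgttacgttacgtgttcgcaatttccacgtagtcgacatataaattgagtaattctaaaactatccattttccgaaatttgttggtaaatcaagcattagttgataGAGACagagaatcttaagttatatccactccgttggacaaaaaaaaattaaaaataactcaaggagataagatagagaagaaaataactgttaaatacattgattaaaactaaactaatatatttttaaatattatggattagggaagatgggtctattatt
PYD2: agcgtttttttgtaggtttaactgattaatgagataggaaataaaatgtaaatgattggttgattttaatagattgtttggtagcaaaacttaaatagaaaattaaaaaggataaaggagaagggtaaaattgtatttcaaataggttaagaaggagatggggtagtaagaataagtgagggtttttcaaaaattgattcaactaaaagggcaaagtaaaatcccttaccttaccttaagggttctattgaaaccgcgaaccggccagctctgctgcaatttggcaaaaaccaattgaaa
PYD3: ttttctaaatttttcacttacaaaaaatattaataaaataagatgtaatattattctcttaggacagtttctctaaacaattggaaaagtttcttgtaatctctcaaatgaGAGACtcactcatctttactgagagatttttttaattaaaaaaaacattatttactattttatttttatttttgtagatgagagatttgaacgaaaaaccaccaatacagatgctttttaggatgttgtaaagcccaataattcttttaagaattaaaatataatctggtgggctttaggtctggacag
GAGAC was found, searching both strands, in the windows of PYD1 and PYD3 and not in those of PYD2, PYD4, AGT2 and AGT3. It lay 162 to 158 bases before the start of PYD1 and 189 to 185 bases before that of PYD3, and 30% of 27437 windows of the same length in the genome hold it. CATTGAA, part of the UPE-box, is in 6.6% of all windows, and ATGNANCT, a core of the site bound by EIN3-type factors, is in 15.2%, and neither was found in the 6 windows. These matches describe letters in a window and no more. The genes themselves lie at chr3:2696199-2699420 for PYD4, chr3:6093990-6096688 for PYD1, chr5:3941528-3944866 for PYD2, chr5:25739131-25741222 for PYD3, chr4:18406627-18409564 for AGT2 and chr2:16083645-16086453 for AGT3, and 0 annotated genes overlap them.

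PYD4 was higher at low sulfate in shoots of every genotype, with log2 changes of 3.77 to 6.11, while those of the other 5 genes lay between -1.72 and 0.82. PYD4 stood at 14.4, 14.4 and 20.5 CPM in -S shoots of eil3 eil1, against 0.582, 1.39 and 1.69 CPM at +S. In eil3 shoots it stood at 50.3, 38.3 and 49.3 CPM at -S, against 2.85, 1.14 and 0.653 CPM at +S. The -S and +S libraries were well apart in both lines, and the 6 +S libraries of these lines held only 16 to 99 counts of PYD4 each. In eil1 shoots PYD4 stood at 236, 268 and 327 CPM at -S, against 24.9, 10.6 and 6.47 CPM at +S. In Col-0 shoots it stood at 419, 354 and 481 CPM at -S, against 5.55, 6.42 and 6.21 CPM at +S. These groups did not overlap either, and the first +S library of eil1 lay well above the others of its group.

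The log2 change of PYD4 at -S against +S was 3.77 ± 0.45 in eil3 eil1 shoots (SE, edgeR adjusted p = 3.79e-07, 13.7-fold) and 4.82 ± 0.43 in eil3 (edgeR adjusted p = 2.34e-07, 28.2-fold). It was 4.31 ± 0.37 in eil1 (edgeR adjusted p = 5.29e-08, 19.8-fold) and 6.11 ± 0.41 in Col-0 (edgeR adjusted p = 6.59e-10, 69.1-fold). All 4 rises passed the test under every alternative run. Single libraries moved the size: without the first +S library the change was 5.02 in eil1 and 5.64 in eil3.

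**Figure D1:**
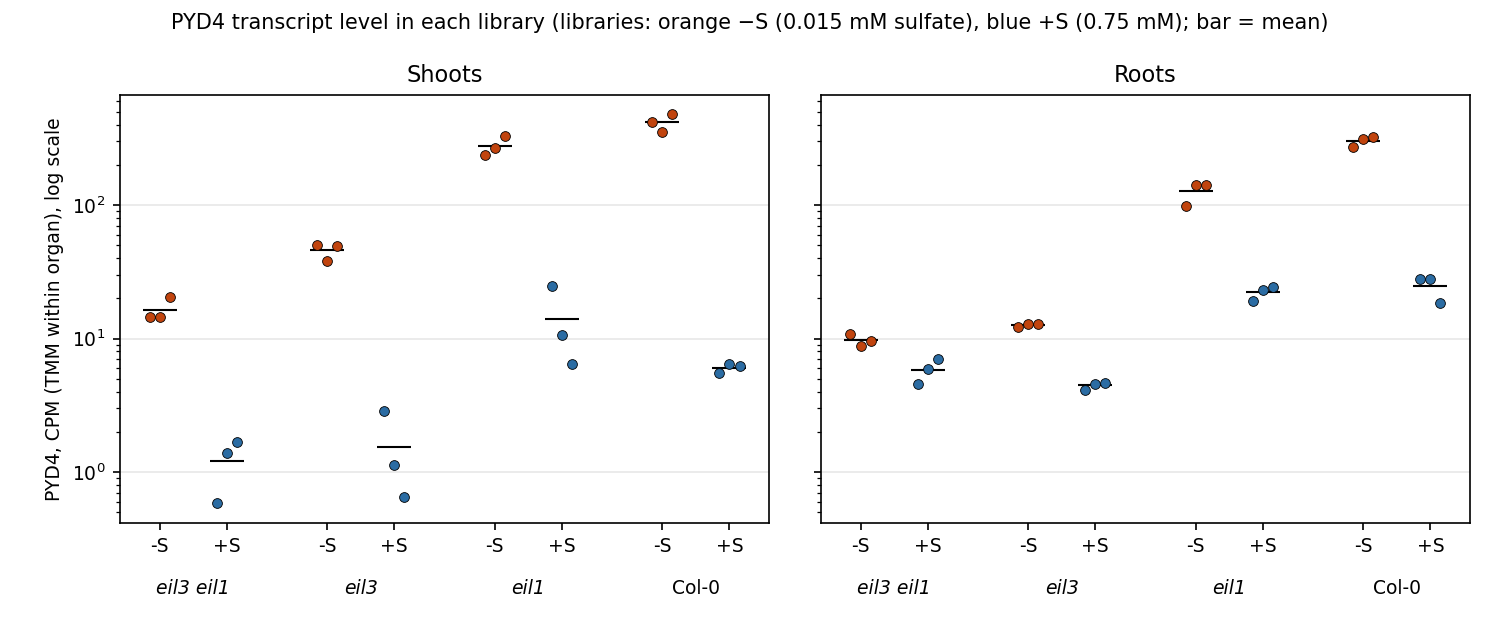
PYD4 level in each library, in CPM on a log axis, for shoots and roots; each point is a library, the bar is the group mean, and the groups run from eil3 eil1 to Col-0 with -S (orange) left of +S (blue). The -S libraries lie above the +S libraries of the same genotype in both organs, and the -S means of eil3 eil1 and eil3 (16.4 and 45.95 CPM in shoots) lie far below those of eil1 and Col-0 (277 and 418 CPM).

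Ordered by mean, the shoot groups ran from Col-0 -S (418 ± 63.3 CPM, SD, n = 3) through eil1 -S (277 ± 46.3), eil3 -S (45.95 ± 6.64), eil3 eil1 -S (16.4 ± 3.51), eil1 +S (13.999 ± 9.66), Col-0 +S (6.06 ± 0.453) and eil3 +S (1.55 ± 1.15) to eil3 eil1 +S (1.22 ± 0.573). Neighbours in this order overlapped between eil3 eil1 -S and eil1 +S and between eil3 +S and eil3 eil1 +S. At low sulfate PYD4 in eil3 eil1 shoots (14.4 to 20.5 CPM) thus stood above its level in fully supplied Col-0 shoots (5.55 to 6.42 CPM), with no overlap of libraries.

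PYD4 was lower in eil3 eil1 and eil3 shoots than in Col-0 shoots at both sulfate levels. At -S the log2 difference was -4.67 ± 0.37 in eil3 eil1 (edgeR adjusted p = 1.98e-09, a 25.4-fold difference) and -3.19 ± 0.34 in eil3 (edgeR adjusted p = 3.71e-06, 9.10-fold). At +S it was -2.33 ± 0.48 in eil3 eil1 (edgeR adjusted p = 0.00515) and -1.89 ± 0.46 in eil3 (edgeR adjusted p = 0.0169). In eil1 shoots the difference did not pass at -S (-0.59, approximate 95% interval -1.21 to 0.02, edgeR adjusted p = 0.405) or at +S (1.21, interval 0.48 to 1.94, edgeR adjusted p = 0.111), although the libraries of the groups did not overlap. The eil3 call at +S was lost when only the groups compared entered the fit (edgeR adjusted p = 0.131) and without the second eil3 +S library (edgeR adjusted p = 0.0799). Without the first +S library of the line, the +S difference was -2.72 in eil3 and 0.50 in eil1.

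The interaction of line with sulfate tests whether the response itself differed from that of Col-0. In shoots the PYD4 response of eil3 eil1 was smaller by a log2 difference of -2.34 ± 0.63 (edgeR adjusted p = 0.0063). It was -1.29 in eil3 (interval -2.44 to -0.15, edgeR adjusted p = 0.292) and -1.80 in eil1 (interval -2.75 to -0.84, edgeR adjusted p = 0.206), which did not pass. Without the first +S library of the line these values were -0.47 in eil3 and -1.09 in eil1.

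In roots the order of the genotypes at -S was Col-0, eil1, eil3 and eil3 eil1, as in shoots. PYD4 stood at 10.8, 8.83 and 9.59 CPM in -S roots of eil3 eil1, against 4.60, 5.87 and 7.02 CPM at +S. In eil3 roots it stood at 12.2, 12.9 and 12.9 CPM at -S, against 4.15, 4.58 and 4.67 CPM at +S. The -S libraries of both lines lay above their +S libraries and below every library of Col-0 roots. In eil1 roots PYD4 stood at 97.8, 140.3 and 142 CPM at -S, against 19.0, 23.2 and 24.3 CPM at +S. In Col-0 roots it stood at 270.4, 312 and 326 CPM at -S, against 28.03, 28.12 and 18.4 CPM at +S. All -S libraries of eil1 were above all Col-0 +S libraries and below all Col-0 -S libraries.

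As log2 values the root differences of PYD4 between -S and +S were 0.73 in eil3 eil1, 1.51 in eil3, 2.51 in eil1 and 3.60 in Col-0, given as a description. Set against Col-0 roots at -S, the lines differed by -4.96 (eil3 eil1), -4.58 (eil3) and -1.26 (eil1), and at +S by -2.09 (eil3 eil1), -2.48 (eil3) and -0.17 (eil1). The root means ran from Col-0 -S (303 ± 28.7 CPM) through eil1 -S (127 ± 25.0), Col-0 +S (24.8 ± 5.59), eil1 +S (22.2 ± 2.77), eil3 -S (12.7 ± 0.447), eil3 eil1 -S (9.74 ± 0.997) and eil3 eil1 +S (5.83 ± 1.21) to eil3 +S (4.46 ± 0.279). Neighbours overlapped between Col-0 +S and eil1 +S and between the last pair.

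AGT3, a relative of PYD4, moved the other way and fell at low sulfate in all 4 genotypes and both organs. In shoots AGT3 stood at 27.7, 23.8 and 21.3 CPM at -S in eil3 eil1, against 57.4, 50.6 and 48.3 CPM at +S. In eil3 shoots it stood at 21.6, 24.9 and 20.8 CPM at -S, against 58.3, 47.3 and 69.3 CPM at +S. No -S library reached a +S library in these lines. In eil1 shoots AGT3 stood at 28.1, 33.96 and 32.7 CPM at -S, against 67.5, 65.1 and 57.99 CPM at +S. In Col-0 shoots it stood at 22.7, 27.3 and 25.6 CPM at -S, against 84.9, 80.7 and 82.5 CPM at +S. The +S libraries of Col-0 were the highest of all, and the -S libraries of the 4 genotypes spanned 20.8 to 33.96 CPM.

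The AGT3 log2 change in shoots was -1.10 ± 0.12 in eil3 eil1 (edgeR adjusted p = 1.22e-07), -1.38 ± 0.12 in eil3 (2.10e-07), -1.01 ± 0.12 in eil1 (5.13e-06) and -1.72 ± 0.12 in Col-0 (2.21e-09). In roots it was -0.59 ± 0.08 in eil3 eil1 (edgeR adjusted p = 0.00013), -0.64 ± 0.08 in eil3 (6.41e-05), -0.46 ± 0.08 in eil1 (0.00231) and -0.76 ± 0.08 in Col-0 (1.37e-06), with root libraries at 50.8 to 68.2 CPM at -S and 81.4 to 110.2 CPM at +S. All 8 calls were kept under every alternative run. Against Col-0 shoots at +S, AGT3 was lower in eil3 eil1 (-0.67 ± 0.12, edgeR adjusted p = 0.00169) and eil3 (-0.51 ± 0.12, edgeR adjusted p = 0.0129), and the eil1 difference did not pass (-0.38, interval -0.61 to -0.15, edgeR adjusted p = 0.114). The eil3 call was lost with only the groups compared (edgeR adjusted p = 0.167), without the first Col-0 +S library (0.054) and without the second eil3 +S library (0.0763). The AGT3 fall in shoots was smaller in eil3 eil1 than in Col-0, with an interaction of 0.61 ± 0.17 (edgeR adjusted p = 0.00773). In -S roots AGT3 was higher in eil3 eil1 than in Col-0, by 0.31 ± 0.08 (edgeR adjusted p = 0.019), a call lost without the second Col-0 -S library (0.0901) or the first eil3 eil1 -S library (0.0561).

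AGT2, the other relative, changed less. In eil3 eil1 shoots AGT2 averaged 41.5 ± 3.04 CPM at -S and 37.9 ± 2.92 CPM at +S, with overlapping libraries (log2 change 0.13, interval -0.02 to 0.27, edgeR adjusted p = 0.137). It fell in shoots of the other genotypes, with log2 changes of -0.22 ± 0.07 in eil3 (edgeR adjusted p = 0.0278), -0.24 ± 0.07 in eil1 (0.0181) and -0.34 ± 0.07 in Col-0 (0.00111). In Col-0 shoots it averaged 36.5 ± 2.08 CPM at -S and 46.3 ± 0.727 CPM at +S. With counts scaled by library totals the change was 0.30 in eil3 eil1 (edgeR adjusted p = 0.000574), 0.01 in eil3 (0.885) and -0.17 in eil1 (0.0675). The eil3 call was also lost with only the groups compared (edgeR adjusted p = 0.0932) and without the third +S or the second or the third -S library of eil3 (0.0681 to 0.145), and the eil1 call without the second or the third +S or the third -S library of eil1 (0.056 to 0.0981). The response of eil3 eil1 differed from that of Col-0 by 0.47 ± 0.10 (edgeR adjusted p = 0.00132). In roots AGT2 lay at 127 to 194 CPM in -S libraries and 148 to 229.5 CPM in +S libraries, and its log2 changes of -0.32 in Col-0 to -0.21 in eil3 did not pass (edgeR adjusted p = 0.112 to 0.613). Without the second Col-0 +S library, at 148 CPM, the Col-0 root change was -0.47 (edgeR adjusted p = 0.00885), and with only the groups compared that of eil1 was -0.31 (0.0456).

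The share of PYD4 among the transcripts of the 3 aminotransferase genes was larger at -S than at +S in every genotype and both organs. For this the levels were set per length as TPM, the share of all transcripts scaled for gene length, computed from the counts. In shoots PYD4 was 20.5% ± 4.64 of the summed TPM at -S and 1.37% ± 0.710 at +S in eil3 eil1 (SD, n = 3 each), and 44.8% ± 4.43 at -S and 1.56% ± 1.14 at +S in eil3. It was 80.8% ± 2.41 at -S and 11.3% ± 6.78 at +S in eil1, and 87.2% ± 1.71 at -S and 4.45% ± 0.407 at +S in Col-0. By mean TPM PYD4 was thus the most abundant of the 3 in -S shoots of eil3, eil1 and Col-0 and the least abundant in all +S shoots. In roots the share was 4.41% ± 0.587 at -S and 2.10% ± 0.536 at +S in eil3 eil1, and 5.35% ± 0.461 at -S and 1.53% ± 0.0684 at +S in eil3. It was 36.6% ± 5.63 at -S and 7.38% ± 0.998 at +S in eil1, and 60.5% ± 4.17 at -S and 8.46% ± 2.10 at +S in Col-0. In every genotype and organ each -S library had a larger share than each +S library.

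The summed TPM of the 3 genes in shoots was 56.04 ± 0.757 at -S and 52.6 ± 2.78 at +S in eil3 eil1, 71.5 ± 4.45 and 55.4 ± 5.30 in eil3, 216 ± 30.8 and 68.3 ± 7.65 in eil1, and 299 ± 41.7 and 74.1 ± 3.99 in Col-0. In roots the sum was lower at -S than at +S in eil3 eil1 (153 ± 5.88 and 198 ± 13.3 TPM) and eil3 (165 ± 9.23 and 203 ± 11.95 TPM), and higher at -S in eil1 (239 ± 15.9 and 207 ± 4.16 TPM) and Col-0 (351 ± 18.8 and 197 ± 14.97 TPM). These shares and sums are descriptions, with no test. TPM carry no TMM scaling, which matters where the -S and +S sums of shoots lie close. With total-count scaling the median log2 change of all loci was 0.19 in the eil3 eil1 and 0.25 in the eil3 shoot response. With TMM it was 0.02 in both. The differences between their -S and +S sums therefore depend on the scaling, and in eil3 eil1 so does the direction. Shares within a library do not. The coding sequences share 64.4% (PYD4 with AGT2), 69.5% (PYD4 with AGT3) and 66.2% (AGT2 with AGT3) of aligned bases, and 0 of the 31-base stretches of these 3 genes occur elsewhere in the genome.

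**Figure D2:**
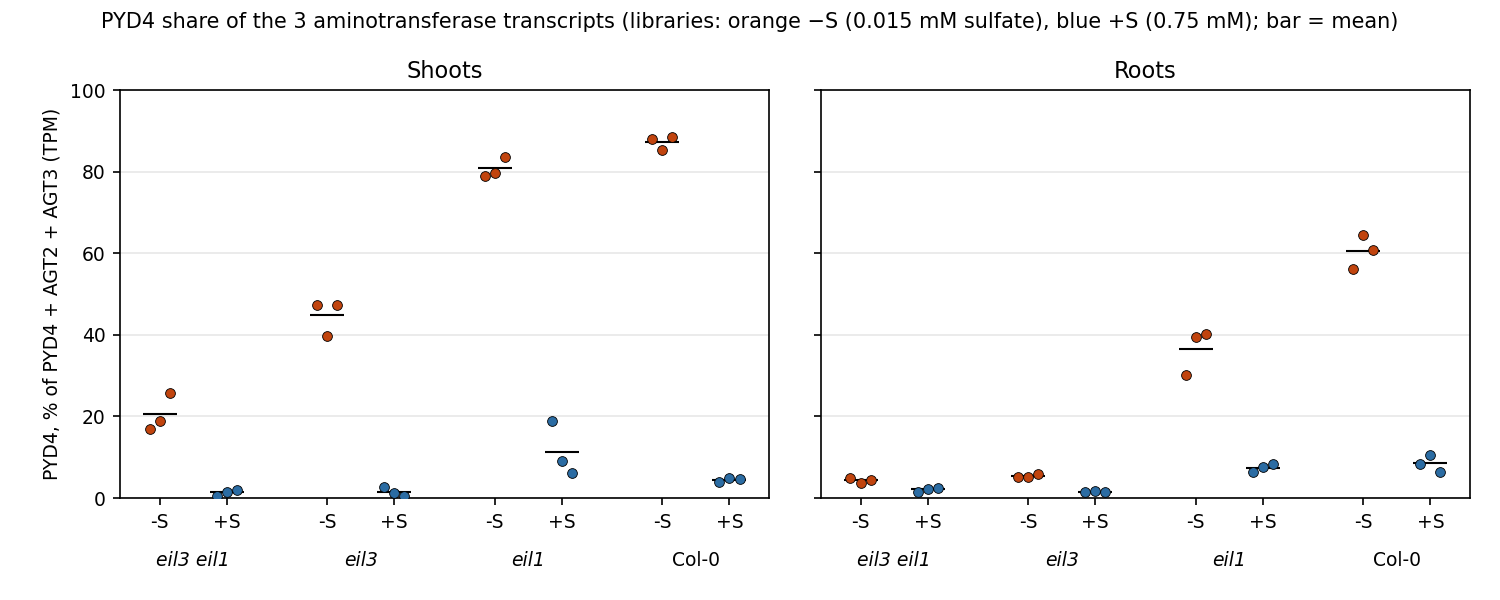
PYD4 as a percentage of the summed TPM of PYD4, AGT2 and AGT3, for shoots and roots; each point is a library, the bar is the group mean, and the groups run from eil3 eil1 to Col-0 with -S (orange) left of +S (blue). The -S means run from 20.5% in eil3 eil1 to 87.2% in Col-0 in shoots and from 4.41% to 60.5% in roots.

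Among the 6 genes PYD4 ranked first by mean TPM in 3 of the 16 groups: -S shoots of eil1 (175 TPM, with PYD1 next at 72.05 TPM), -S shoots of Col-0 (262 TPM, with PYD1 at 89.6 TPM) and -S roots of Col-0 (213 TPM, with PYD1 at 166 TPM). It ranked last in all +S groups, in -S shoots of eil3 eil1 and in -S roots of eil3 eil1 and eil3. PYD1 ranked first in every other group but Col-0 +S shoots, where AGT3 (47.6 TPM) stood just above PYD1 (44.1 TPM). The deposited target lengths exceed the longest annotated spliced transcript of each of the 6 genes, and with spliced lengths PYD4 was first in the same 3 groups.

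The upstream genes PYD1, PYD2 and PYD3 rose by smaller steps at low sulfate in shoots of all 4 genotypes. PYD1, which starts the route, stood at 124, 118 and 114 CPM at -S in eil3 eil1 shoots, against 73.2, 71.4 and 68.5 CPM at +S. In Col-0 shoots it stood at 133, 125 and 148 CPM at -S, against 80.6, 72.5 and 76.2 CPM at +S. Over the 4 genotypes its 12 -S shoot libraries had a lowest value of 98.8, a median of 115 and a highest value of 148 CPM, and its 12 +S shoot libraries 64.8, 72.8 and 80.6 CPM, with no overlap. The log2 changes were 0.74 ± 0.08 in eil3 eil1 (edgeR adjusted p = 8.99e-08), 0.54 ± 0.08 in eil3 (2.77e-05), 0.57 ± 0.08 in eil1 (3.01e-05) and 0.82 ± 0.08 in Col-0 (1.58e-07).

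PYD2, which opens the ring, had the smallest shoot log2 changes of PYD1, PYD2 and PYD3 in each genotype, differences that were not tested. In shoots it averaged 64.7 ± 1.40 CPM at -S and 53.5 ± 2.30 CPM at +S in eil3 eil1, and 62.3 ± 1.36 CPM at -S and 54.8 ± 4.53 CPM at +S in eil3. It averaged 67.6 ± 0.807 CPM at -S and 49.9 ± 1.39 CPM at +S in eil1, and 74.9 ± 0.876 CPM at -S and 59.5 ± 2.22 CPM at +S in Col-0. Within each genotype the groups did not overlap, and the log2 changes were 0.27 ± 0.06 in eil3 eil1 (edgeR adjusted p = 0.000231), 0.19 ± 0.06 in eil3 (0.0133), 0.44 ± 0.06 in eil1 (1.02e-05) and 0.33 ± 0.06 in Col-0 (9.45e-05). The eil3 call was lost with only the groups compared (edgeR adjusted p = 0.178), without the first eil3 +S library (0.0828) and without the third eil3 -S library (0.0521).

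PYD3, which releases beta-alanine, averaged 58.3 ± 3.28 CPM at -S and 47.8 ± 1.30 CPM at +S in eil3 eil1 shoots, and 61.3 ± 2.06 CPM at -S and 49.9 ± 1.77 CPM at +S in eil3 shoots. It averaged 67.8 ± 2.11 CPM at -S and 47.2 ± 2.00 CPM at +S in eil1, and 77.7 ± 7.16 CPM at -S and 51.9 ± 4.59 CPM at +S in Col-0. The log2 changes were 0.29 ± 0.07 in eil3 eil1 (edgeR adjusted p = 0.00141), 0.30 ± 0.07 in eil3 (0.00246), 0.52 ± 0.07 in eil1 (1.80e-05) and 0.58 ± 0.07 in Col-0 (2.46e-06). The PYD3 response of eil3 eil1 was smaller than that of Col-0, with an interaction of -0.29 ± 0.10 (edgeR adjusted p = 0.0234). That call was lost with total-count scaling (edgeR adjusted p = 0.0878), with only the groups compared (0.0609) and on leaving out any 1 of the second and the third Col-0 +S, the third Col-0 -S, the third eil3 eil1 +S and the third eil3 eil1 -S libraries (0.0513 to 0.0805).

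**Figure D3:**
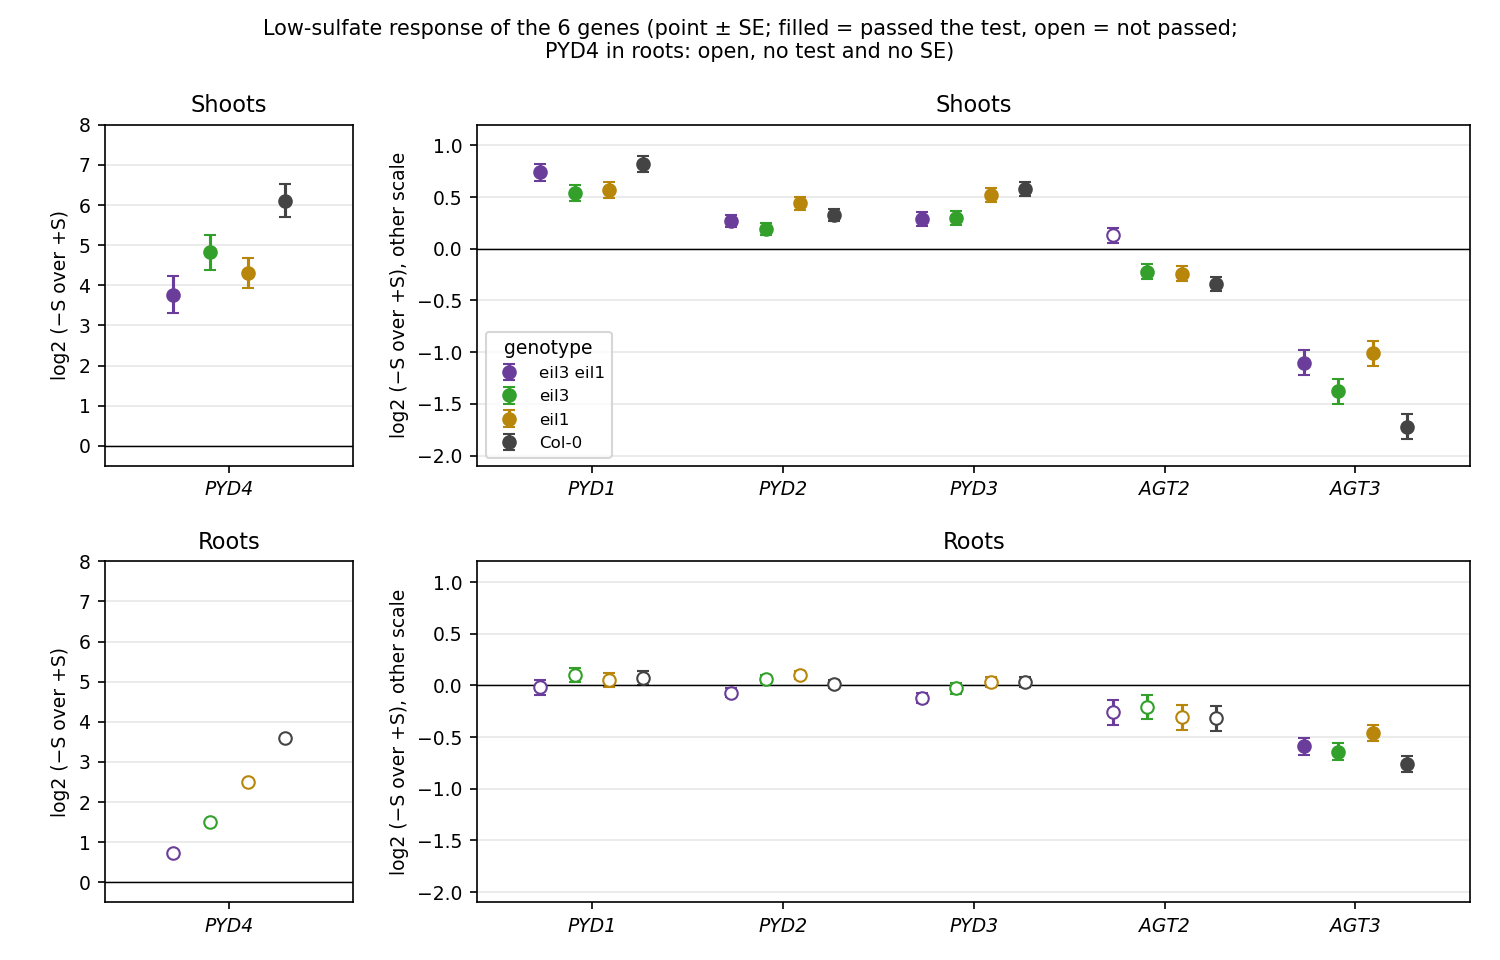
Log2 change of each gene at -S against +S with its approximate SE, by genotype, in shoots (top) and roots (bottom), with PYD4 on its own axis; filled points passed the test, open points did not, and PYD4 in roots is open, with no test and no SE. PYD1, PYD2 and PYD3 lie above 0 in shoots (0.19 to 0.82) and near 0 in roots (-0.12 to 0.10), and AGT3 lies below 0 in both.

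Counted per comparison, 5 of the 6 genes passed the low-sulfate test in eil3 eil1 shoots (4 higher, 1 lower), where 60.8% of the 21697 loci tested did. In eil3 shoots 6 of 6 passed against 34.6% of loci, in eil1 shoots 6 of 6 against 27.3%, and in Col-0 shoots 6 of 6 against 34.9%, each with 4 higher and 2 lower. The median log2 change of the 6 genes was 0.28 in eil3 eil1, 0.24 in eil3, 0.48 in eil1 and 0.46 in Col-0, and that of all loci was 0.02 in eil3 eil1, 0.02 in eil3, 0.01 in eil1 and 0.00 in Col-0.

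In roots PYD1, PYD2 and PYD3 did not pass the low-sulfate test in any genotype. PYD1 lay at 212 to 257 CPM in the -S root libraries and 198 to 248 CPM in the +S ones, PYD2 at 109 to 124 CPM and 110.2 to 124 CPM, and PYD3 at 109 to 130.4 CPM and 117 to 127 CPM. Of the 5 genes tested, 1 passed in each genotype, AGT3, against 3.89% of the 21954 loci in eil3 eil1 roots, 1.06% in eil3, 1.92% in eil1 and 9.03% in Col-0.

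**Figure D4:**
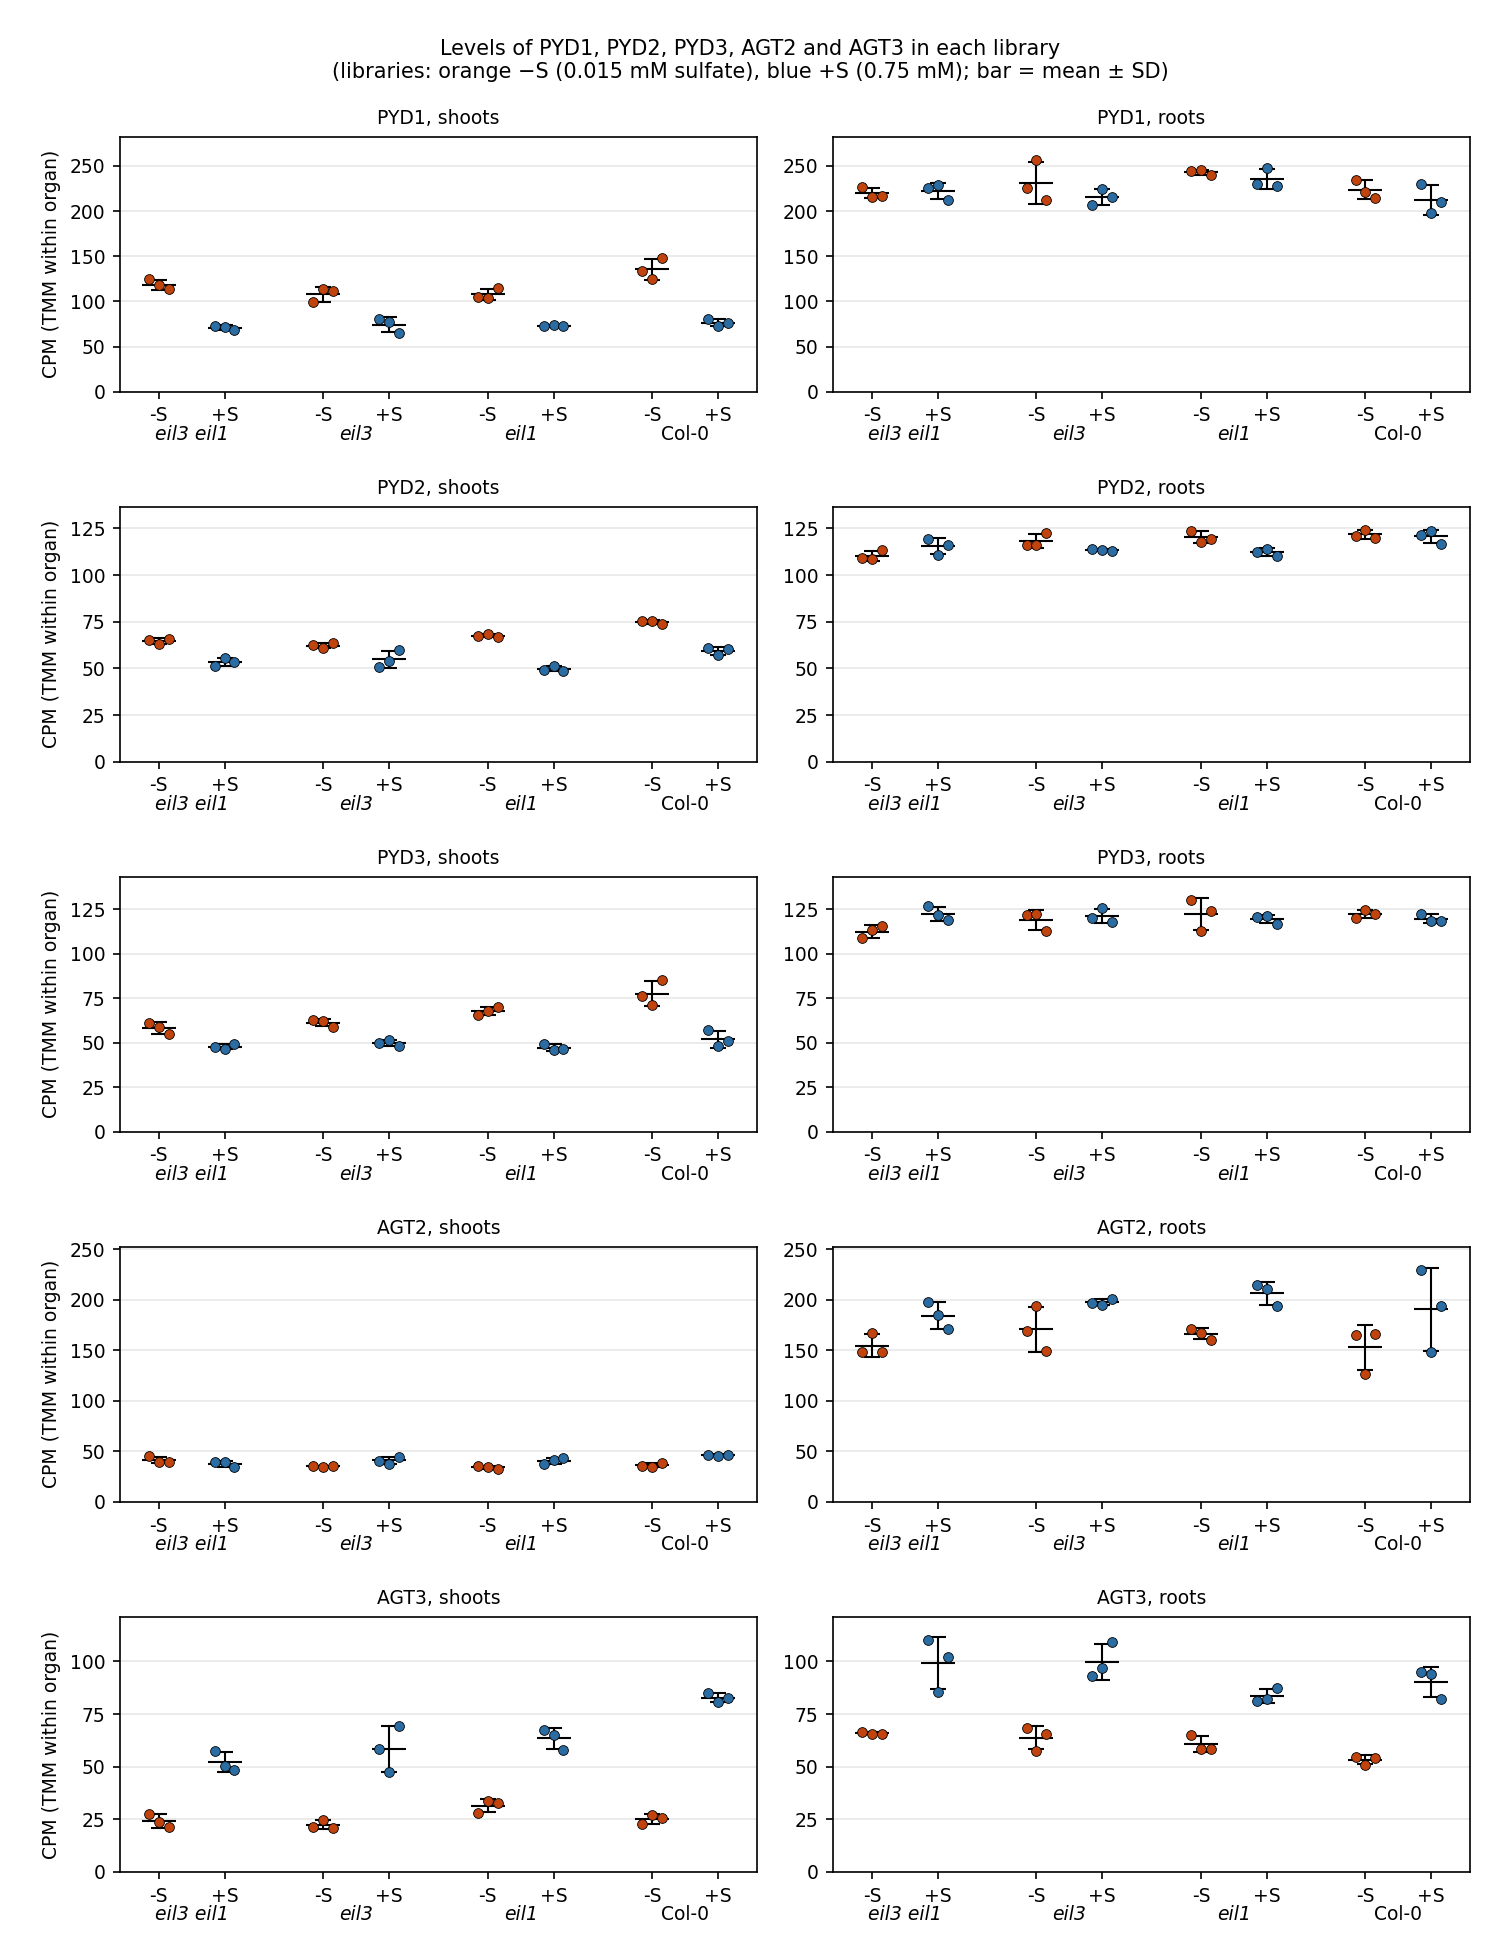
Levels of PYD1, PYD2, PYD3, AGT2 and AGT3 in each library, in CPM scaled within each organ, with -S (orange) left of +S (blue) in each genotype; bars give the mean and SD of 3 libraries. In shoots the -S libraries of PYD1, PYD2 and PYD3 lie above the +S libraries of the same genotype and those of AGT3 below (20.8 to 33.96 CPM against 47.3 to 84.9 CPM).

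In -S shoots the upstream genes were also lower in the lines labelled eil3 than in Col-0. In eil3 eil1 the log2 difference was -0.19 ± 0.08 for PYD1 (edgeR adjusted p = 0.0475), -0.21 ± 0.06 for PYD2 (0.0029) and -0.41 ± 0.07 for PYD3 (4.07e-05), and AGT2 was higher by 0.18 ± 0.07 (0.0416). In eil3 it was -0.33 ± 0.08 for PYD1 (edgeR adjusted p = 0.0071), -0.27 ± 0.06 for PYD2 (0.00242) and -0.34 ± 0.07 for PYD3 (0.0021). With PYD4, 5 of 6 genes passed in eil3 eil1, against 53.6% of loci, and 4 of 6 in eil3, against 17.5%. In eil1 0 of 6 passed edgeR's test, against 0.53% of loci, 4 had an unadjusted p under 0.05, and DESeq2 called 1, PYD1 (-0.34, adjusted p = 0.00533). With total-count scaling PYD1 and PYD2 did not pass in eil3 eil1 (-0.07 and -0.09) or in eil3 (-0.20 and -0.14). The PYD1 and AGT2 calls in eil3 eil1 were also lost without a filter on low counts, with only the groups compared and on leaving out single libraries (edgeR adjusted p up to 0.243), and the AGT2 call with DESeq2 (adjusted p = 0.0703) and with edgeR on other size factors, RLE (0.0702).

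At +S the shoot differences from Col-0 beside PYD4 and AGT3 were few. In eil3 eil1 3 of 6 genes passed, PYD4, AGT3 and AGT2 (-0.29 ± 0.07, edgeR adjusted p = 0.02), against 7.54% of loci. In eil3 2 of 6 passed, PYD4 and AGT3, against 7.13%, and in eil1 1 of 6, PYD2 (-0.25 ± 0.06, edgeR adjusted p = 0.028), against 1.26%. The AGT2 call was lost with total-count scaling (edgeR adjusted p = 0.0543), with only the groups compared (0.0921) and without the first or the third Col-0 +S or the third eil3 eil1 +S library (0.0563 to 0.0987). The PYD2 call was lost with total-count scaling (edgeR adjusted p = 0.128), with only the groups compared (0.17) and without the first or the third Col-0 +S or any 1 eil1 +S library (0.054 to 0.143).

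The shoot interaction passed for 4 of 6 genes in eil3 eil1, PYD3, PYD4, AGT2 and AGT3, against 36.9% of loci. In eil3 it passed for 0 of 6 against 1.78% of loci by edgeR, with 3 at an unadjusted p under 0.05 and 0 by DESeq2. In eil1 it passed for 0 of 6 against 0.023% of loci by edgeR, with 3 at an unadjusted p under 0.05 and 1 by DESeq2, AGT3 (0.69, adjusted p = 0.0309).

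In roots few of the 5 tested genes differed between lines and Col-0. At -S 2 of 5 passed in eil3 eil1, against 12.1% of loci, AGT3 and PYD2. PYD2 averaged 110.5 ± 2.63 CPM in eil3 eil1 and 122 ± 2.24 CPM in Col-0 (-0.14 ± 0.04, edgeR adjusted p = 0.0358), a call lost without a filter on low counts (0.0881), with only the groups compared (0.163) and without any 1 Col-0 -S library or the first or second eil3 eil1 -S library (0.0628 to 0.126). In eil3 0 of 5 passed at -S by edgeR, against 6.65% of loci, with 1 at an unadjusted p under 0.05 and 1 by DESeq2, AGT3 (0.27, adjusted p = 0.0383). In eil1 0 of 5 passed at -S by edgeR, against 2.51%, with 1 at an unadjusted p under 0.05 and 0 by DESeq2. At +S 0 of 5 passed by edgeR in eil3 eil1 (0.879% of loci), eil3 (2.19%) and eil1 (1.24%), with 0, 0 and 2 at an unadjusted p under 0.05 and 0 by DESeq2 in each. The root interaction passed by edgeR for 0 of 5 in eil3 eil1 (3.83% of loci), eil3 (0.943%) and eil1 (0.383%), with 0, 0 and 1 at an unadjusted p under 0.05 and 0 by DESeq2 in each.

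The organs were compared in Col-0, with its 12 libraries on 1 scale and no pairing of shoots with roots. AGT2 was the gene with the largest organ difference of the 5 tested. It averaged 128 ± 18.3 CPM in roots and 41.9 ± 2.43 CPM in shoots at -S (log2 difference 1.61 ± 0.14, edgeR adjusted p = 2.46e-07), and 160.1 ± 35.1 CPM in roots and 53.0 ± 0.768 CPM in shoots at +S (1.59 ± 0.14, edgeR adjusted p = 2.73e-07). At -S PYD1, PYD2 and PYD3 were higher in roots by 0.27 ± 0.08 (edgeR adjusted p = 0.00893), 0.25 ± 0.05 (0.00086) and 0.21 ± 0.08 (0.0261), and at +S by 1.03 ± 0.08 (1.18e-07), 0.57 ± 0.05 (5.09e-07) and 0.76 ± 0.08 (1.18e-06). The PYD3 call at -S was lost without the first or second Col-0 -S shoot or the second Col-0 -S root library (edgeR adjusted p = 0.0661 to 0.117). AGT3 was higher in roots at -S (0.63 ± 0.08, edgeR adjusted p = 7.06e-06) and lower at +S (-0.32 ± 0.08, 0.00176), but with total-count scaling its +S difference was 0.23 (0.0128). In both organ comparisons 5 of 5 genes passed, against 76.8% of the 22301 loci at -S and 76.4% at +S.

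The low-sulfate response differed between organs for 4 of the 5 genes, against 13.2% of loci. Root response minus shoot response was -0.75 ± 0.12 for PYD1 (edgeR adjusted p = 0.00175), -0.32 ± 0.08 for PYD2 (0.0165), -0.55 ± 0.11 for PYD3 (0.00663) and 0.95 ± 0.11 for AGT3 (0.000346). AGT2 did not pass (0.02, interval -0.37 to 0.41, edgeR adjusted p = 0.967). PYD4, as a description, averaged 254 ± 22.8 CPM in Col-0 roots and 479 ± 73.0 CPM in Col-0 shoots at -S, and 20.9 ± 4.68 CPM in roots and 6.95 ± 0.529 CPM in shoots at +S on this scale, and its response was smaller in roots by a log2 difference of -2.51.

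Across groups the upstream genes ran closely together in shoots. Over the 8 shoot group means Pearson's r of log2 CPM was 0.92 for PYD1 with PYD2, 0.92 for PYD1 with PYD3 and 0.96 for PYD2 with PYD3, and with PYD4 it was 0.84 for PYD1, 0.81 for PYD2 and 0.91 for PYD3. Over the 8 root group means it was 0.16, 0.24 and 0.66 for the same 3 pairs, and 0.47, 0.72 and 0.41 with PYD4. AGT3 had r of -0.67 with PYD4 over shoot means and -0.74 over root means. These values describe group means that share the sulfate contrast.

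Over all 16 group means the loci most like PYD4, of 18517 compared, were AT3G05400 (r = 0.961), AT5G40670 (0.956), SULTR4;1 (0.895), DIN2 (0.893) and BGLU28 (0.890). SULTR4;1 is a vacuolar sulfate exporter, and DIN2 and BGLU28 are beta-glucosidases. AT3G05400 averaged 13.7 ± 2.95 CPM at -S and 1.78 ± 0.876 CPM at +S in eil3 eil1 shoots, against 199 ± 46.5 CPM at -S and 1.57 ± 0.414 CPM at +S in Col-0 shoots. Over the 8 root group means the 5 highest were AT5G40670 (0.991), the vacuolar sulfate exporter SULTR4;2 (0.986), PMP (0.985), AT3G05400 (0.985) and SULTR4;1 (0.985). The root means of PMP spanned only 234 to 276 CPM, against 4.46 to 303 CPM for PYD4, since r does not measure the size of a change. In -S shoots PMP was higher in eil3 eil1 (212 ± 2.96 CPM) than in Col-0 (169 ± 7.93 CPM). These root r values use the PYD4 values that chose the set and are a description. In the list over 16 means PYD1 ranked 1858 (r = 0.353), PYD3 1892 (0.349), PYD2 2127 (0.327), AGT2 13972 (-0.106) and AGT3 18389 (-0.63).

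Genes that supply uracil, make pyrimidines or use beta-alanine were described as lists. Of 12 uracil supply genes, which release, salvage or carry pyrimidine bases and nucleosides, 1 rose and 3 fell in Col-0 -S shoots, where 34.9% of all loci passed, with a median log2 change of -0.03 against 0.00 for all loci. UPP, a uracil phosphoribosyltransferase, averaged 22.1 ± 1.42 CPM at -S and 32.1 ± 2.88 CPM at +S (-0.53 ± 0.11, edgeR adjusted p = 0.000513), ENT3, a nucleoside transporter, changed by -0.50 ± 0.12 (0.00306) and UKL1, a uridine kinase, by -0.34 ± 0.09 (0.00571). In Col-0 roots 0 of the 12 passed by edgeR, against 9.03% of loci, with 1 at an unadjusted p under 0.05, the nucleoside hydrolase URH2 (0.24, edgeR adjusted p = 0.0505). In eil3 eil1 shoots 1 rose and 4 fell, against 60.8% of loci. The response was lower than that of Col-0 for 2 of 12, against 36.9% of loci, UPS2, a ureide permease (-0.84 ± 0.16, edgeR adjusted p = 0.000426) and ENT3 (-0.52 ± 0.17, 0.0223).

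Transcripts of pyrimidine synthesis, the route opposite to breakdown, were higher in shoots of the double mutant than of Col-0 at low sulfate. In -S shoots 10 of the 10 genes tested (of 11 listed) were higher in eil3 eil1 than in Col-0, where 53.6% of loci differed in either direction, with a median of 1.16 against 0.00 for all loci. In eil3 8 of 10 were higher, against 17.5% of loci that differed, with a median of 0.48. In +S shoots 4 of 10 were already higher in eil3, against 7.13% of loci, with a median of 0.19. In eil3 eil1 1 of 10 was higher at +S, against 7.54%, with a median of 0.06. The eil3 interaction passed for 0 of 10 by edgeR, against 1.78% of loci, with 2 at an unadjusted p under 0.05. The response was larger in eil3 eil1 than in Col-0 for 9 of 10, against 36.9% of loci with an interaction in either direction, among them UMPS, UMP synthase (1.39 ± 0.12, edgeR adjusted p = 4.24e-08), CARA, a carbamoyl phosphate synthetase subunit (1.33 ± 0.11, 2.75e-08), and PYRB, aspartate transcarbamoylase (1.27 ± 0.11, 3.64e-08). Green marker sums in the same libraries were 29772 to 31864 CPM in eil3 eil1 and 54374 to 66115 CPM in Col-0, and their part in the result was not tested. In Col-0 shoots 3 genes of 10 rose and 2 fell at -S, against 34.9% of loci, and CTPS1, a CTP synthase, averaged 41.9 ± 2.62 CPM at -S and 82.4 ± 7.50 CPM at +S (-0.98 ± 0.11, edgeR adjusted p = 9.76e-07). In Col-0 roots 2 of 10 fell, against 9.03% of loci, CTPS1 (-0.80 ± 0.07, edgeR adjusted p = 2.15e-08) and CTPS4, another CTP synthase (-0.41 ± 0.05, 1.91e-06), and both responses were weaker in eil3 eil1 roots (interactions of 0.44 ± 0.10, 0.00994, and 0.40 ± 0.06, 0.000613). Against Col-0 in -S roots, 2 of 10 were higher in eil3 eil1, with a median of 0.08, where 12.1% of loci differed in either direction.

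Of 9 pantothenate and coenzyme A genes, 4 rose and 1 fell in Col-0 -S shoots, against 34.9% of loci, with a median of 0.15 against 0.00 for all loci, and 1 rose and 2 fell in Col-0 roots, against 9.03%. PTS, the pantothenate synthetase that joins beta-alanine to pantoate, averaged 8.20 ± 0.715 CPM at -S and 12.3 ± 1.34 CPM at +S in Col-0 shoots (-0.59 ± 0.12, edgeR adjusted p = 0.000943) and fell in Col-0 roots too (-0.56 ± 0.10, 0.00107). PANK1, a pantothenate kinase, rose in shoots (0.45 ± 0.08, edgeR adjusted p = 0.000176) and roots (0.20 ± 0.05, 0.0199). KPHMT2, a ketopantoate hydroxymethyltransferase, rose in shoots (0.38 ± 0.09, edgeR adjusted p = 0.00365) and fell in roots (-0.35 ± 0.08, 0.00536).

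Of 10 other genes of beta-alanine and aminotransferase metabolism, 4 rose and 3 fell in Col-0 -S shoots, against 34.9% of loci, with a median of 0.06 against 0.00 for all loci, and 2 rose and 1 fell in Col-0 roots, against 9.03%. AGT1 and GGAT1, aminotransferases of photorespiration, changed by -0.88 ± 0.10 (edgeR adjusted p = 1.15e-06) and -0.67 ± 0.09 (5.25e-06) in shoots whose green marker sums were 54374 to 66115 CPM at -S and 93505 to 112272.5 CPM at +S, and the part of those sums was not tested. POP2, the gamma-aminobutyrate aminotransferase, rose in shoots (199.7 ± 22.0 CPM at -S and 130.2 ± 7.24 CPM at +S, 0.62 ± 0.11, edgeR adjusted p = 0.00015) and in roots (0.36 ± 0.08, 0.00443).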

How the data were processed

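The libraries are RNA-seq of shoots and roots, 48 in all, in 16 groups of 3 taken from the sample labels. Estimated counts per locus for 33602 targets were deposited by the authors, with 1 effective length per target. Per the submitters' processing notes, FastQC, Trimmomatic 0.36, kallisto 0.43.1 and build TAIR10 are listed for the upstream steps, with no further settings. Of the estimated counts, 7.79% were not whole (tolerance 1e-06), and all were rounded. The 48 deposited TPM columns were not used, and TPM values were computed here from the counts and effective lengths.

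Low loci were removed with filterByExpr, which left 21697 loci in shoots, 21954 in roots and 22301 in the 12 Col-0 libraries used to compare organs. edgeR 4.0.16 (limma 3.58.1, R 4.3.3) tested 29 comparisons with its quasi-likelihood F test, TMM scaling, all 8 groups of an organ in 1 fit, and Benjamini-Hochberg adjustment over all loci at 0.05. CPM are TMM-scaled within an organ. SE is the size of the log2 change over the square root of F, and intervals are approximate. P-values measure the spread between libraries labelled as replicates. Correlations used 18517 loci with at least 5 CPM in the highest group and a prior count of 2. Alternatives were total-count and RLE scaling, no filter, DESeq2 1.42.0, only the groups compared, a replicate block in roots, and leaving out each library. The tests were checked on simulated counts that had the same spread for every locus. Of 1.5-fold changes they recovered 41.8% in a shoot response, 49.3% in a root response and 10.4% in the interaction between organs. Of 4-fold changes they recovered 97.0%, 97.0% and 95.5%. Of 2-fold changes they recovered 88.1%, 86.6% and 64.2%. Changes of 2-fold or less can thus be missed. The shared spread does not cover genes that vary more between libraries. PYD4 in shoots is such a gene, and its eil1 interaction of -1.8 did not pass. Sequences were read with Python 3.11.15 and Biopython 1.88 and matched by locus to RefSeq TAIR10.1, with numpy 2.4.6, pandas 2.3.3 and matplotlib 3.10.9 for the rest.

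The 6 genes and all lists were chosen with earlier results of these data known. All 6 are named. Of each other list up to 3 genes with the smallest p-values per organ in the Col-0 response or the eil3 eil1 interaction could be named, and the 5 loci most like PYD4.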

Additional observations from a re-analysis of the deposited data

Results flagged for a closer look

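In shoots, 4 genes responded to low sulfate differently in eil3 eil1 and in Col-0 by the interaction test, of 6 tested, where 36.9% of all loci passed. The response of eil3 eil1 minus that of Col-0 was -2.34 for PYD4, the aminotransferase of the pathway, and -0.29 for PYD3, which releases beta-alanine. The PYD3 call was lost with total-count scaling (edgeR adjusted p = 0.0878), with only the groups compared (0.0609) and on leaving out any 1 of 5 libraries (0.0513 to 0.0805). It was 0.47 for AGT2 and 0.61 for AGT3, its aminotransferase relatives. Green marker sums in -S shoots were 29772 to 31864 CPM in eil3 eil1 and 54374 to 66115 CPM in Col-0, and their part in these differences was not tested.

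In Col-0, 4 genes responded differently in roots and in shoots by the interaction test, of 5 tested, where 13.2% of all loci passed. The root response minus the shoot response was -0.75 for PYD1, -0.32 for PYD2 and -0.55 for PYD3, the 3 upstream enzymes of uracil breakdown, and 0.95 for AGT3.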

How the results depend on the processing

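Calls were 23 of 24 for the shoot responses (21 to 23 on leaving out single libraries), where 27.3% to 60.8% of all loci passed per comparison. For the root responses they were 4 of 20 (4 to 5), against 1.06% to 9.03% of loci. Lines against Col-0 gave 15 of 36 in shoots (12 to 16), against 0.53% to 53.6%, and 2 of 30 in roots (0 to 3), against 0.879% to 12.1%. Interactions gave 4 of 18 in shoots (3 to 4), against 0.023% to 36.9%, and 0 of 15 in roots (0 to 0), against 0.383% to 3.83%. Organs gave 14 of 15 (13 to 14), against 13.2% to 76.8%. Shoot counts cover 6 genes, and those of roots and organs 5, without PYD4. Lines against Col-0 in shoots gave 9 with total-count scaling and 9 with only the groups compared. In roots they gave 1 with no filter, 1 with the replicate block and 1 with only the groups compared; the cause was not tested.

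Total-count scaling turned the AGT2 response of eil3 shoots to 0.01 and the AGT3 organ difference at +S to 0.23, and moved the PYD4 organ differences to 2.14 at +S and -0.47 at -S. With it the median log2 change of all loci was 0.19 (0.02 with TMM) in eil3 eil1, 0.25 (0.02) in eil3 and 0.12 (0.00) in Col-0 shoot responses, 0.11 (0.00) in eil3 eil1 and 0.13 (0.00) in eil3 shoots against Col-0 at -S, 0.12 (0.01) in the eil3 shoot interaction, and 0.45 (0.01) at -S, 0.61 (0.06) at +S and -0.12 (-0.01) for the interaction between organs. The share of calls that were higher was then 66.9% against 53.5% in the response of eil3 eil1 shoots, 84.4% against 52.1% in eil3, 67.0% against 52.8% in eil1 and 70% against 48.6% in Col-0. Against Col-0 in -S shoots it was 64% against 51.2% in eil3 eil1 and 81.2% against 50.5% in eil3, and in +S shoots 65.8% against 37.7% in eil3 eil1, 45% against 34.7% in eil3 and 64.5% against 33% in eil1. It was 73.3% against 42% in the eil3 shoot interaction, 66% against 50.8% in eil3 eil1 and 55.8% against 39.4% in eil3 roots at +S, and 48% against 60.2% in the eil3 eil1 root interaction. Between organs it was 74.6% against 53.1% at +S, 70.4% against 50.6% at -S and 26.1% against 45.2% for the interaction, and with RLE factors 23.6% against 33.9% in eil1 shoots at -S against Col-0.

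Counts over all loci moved by over 1.5 times in many comparisons. With only the groups compared, loci called were 4947 (main 7516) in the eil3 shoot response, 516 (1636), 21 (1548) and 14 (273) in shoots of eil3 eil1, eil3 and eil1 against Col-0 at +S, 143 (386) and 3 (5) in the eil3 and eil1 shoot interactions, 102 (233) and 262 (422) in the eil3 and eil1 root responses, 325 (193), 250 (480) and 135 (272) in roots of eil3 eil1, eil3 and eil1 at +S, 277 (551) in eil1 roots at -S and 41 (84) in the eil1 root interaction. With DESeq2 they were 682 at +S and 527 (115) at -S in eil1 shoots, 804 and 109 in the eil3 and eil1 shoot interactions, 415 in the eil3 root response, 467, 828 and 572 in roots of eil3 eil1, eil3 and eil1 at +S, 863 in eil1 roots at -S, and 409 (207) and 198 in the eil3 and eil1 root interactions. Total-count scaling gave 166 at +S and 76 at -S in eil1 shoots and 603 and 9 in the eil3 and eil1 shoot interactions; the eil1 shoot interaction had 10 with RLE and 20 with no filter.

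No paired analysis was possible in shoots because the column numbers cannot be tied to the titles. In roots, 20 of 84 same-numbered pairs correlated above 0.1 (lowest -0.182, median 0.03, against -0.017 for other numbers), so not every pair did and the numbers were not treated as pairs. As a hint from the data and not the design that same-numbered libraries may share something, 17 of 24 were closest to their own number. The replicate block gave 349 loci in eil3 eil1 roots at +S and lost the PYD2 call of eil3 eil1 roots at -S (edgeR adjusted p = 0.0527). Leaving out single libraries moved counts of all loci by over 1.5 times in 18 comparisons, among them to between 0 and 27 (main 5) in the eil1 shoot interaction and between 4 and 290 (main 115) in eil1 shoots at -S. Counted per gene value and library left out, 41 calls were lost, 4 were gained and 1251 values stayed the same. A gene value can count for several libraries. At 16 to 99 counts, PYD4 in +S shoots of eil3 and eil3 eil1 is the least precise value.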

Other observations

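Purine breakdown, which like uracil breakdown recovers nitrogen from nucleotides, changed in part. Of its 10 listed genes 2 rose and 3 fell in Col-0 -S shoots, with a median log2 change of -0.13 against 0.00 for all loci, where 34.9% of loci passed. XDH1, xanthine dehydrogenase, averaged 122 ± 9.93 CPM at -S and 67.0 ± 1.66 CPM at +S (0.86 ± 0.11, SE, edgeR adjusted p = 4.83e-06). UOX, urate oxidase, averaged 51.4 ± 4.93 CPM at -S and 34.8 ± 1.49 CPM at +S (0.56 ± 0.08, edgeR adjusted p = 2.64e-05). ALN, allantoinase, averaged 33.4 ± 0.510 CPM at -S and 62.7 ± 11.7 CPM at +S (-0.91 ± 0.13, edgeR adjusted p = 2.24e-05).

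In Col-0 roots XDH1 rose (0.24 ± 0.06, edgeR adjusted p = 0.00852) and AAH, allantoate amidohydrolase, fell (-0.56 ± 0.10, 0.00062), 2 of the 10, against 9.03% of loci. The shoot response of eil3 eil1 differed from that of Col-0 for 4 of 10, close to the 36.9% of all loci, among them UGLYAH (-0.47 ± 0.10, edgeR adjusted p = 0.000721), UAH (0.32 ± 0.09, 0.00637) and ALN (-0.68 ± 0.19, 0.00734). Its root response differed for 1 of 10, against 3.83% of loci, UAH (-0.29 ± 0.08, edgeR adjusted p = 0.0353).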
